A study of Dugesia japonica with 157 samples.

Results

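Right paramedian sections, numbered 16 to 23, were set against left paramedian sections, numbered 29 to 36, of a planarian flatworm cut from right to left. The groups are mirrored about section 26, the middle one of 51 by number, so that each group lies 3 to 10 sections from it. These 16 sections are part of a series of 157 single-section libraries of the freshwater planarian Dugesia japonica, strain AF. The remaining libraries come from 35 other sections of the right-left cut, 78 sections cut from anterior to posterior and 28 cut from dorsal to ventral. Each library holds polyadenylated RNA of 1 section of a whole animal, and the labels give no genotype other than the strain and no agent for any group. The labels name no replicate animals, so the sections of a side stand in for replicates and p-values measure the spread between sections only. Section 17, on the right, had 20338 counts, under the minimum of 220502.2 (20% of the median total of the 51 sections), and was left out. This left 7 right and 8 left sections, and 15843 of 25566 rows of the count table reached 5 counts in 3 or more of them.

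Planarians are bilaterally symmetric, with paired nerve cords running along the body on the ventral side and gut branches on either side. The pharynx, the muscular feeding tube, lies on the midline in the middle of the body. Planarian muscle cells express signals that mark positions in the body, some of them along the midline. A comparison of mirrored sections therefore asks which transcripts are unequal between the sides. The deposited rows carry identifiers of a transcript set that are not paired with gene names, so rows are named by identifier, no function is given to them, and markers of nerve cord, gut or pharynx could not be looked up.

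Sequencing depth overlapped between the sides, with 1 deep section on the right. The right sections held a median of 2731445 counts (1327033 to 13052596), and the left sections a median of 2800723 (1141316 to 7105233). Right sections detected a median of 13657 rows (10506 to 17846) and left sections 13476 (10430 to 16463). Neither log2 total nor detected rows differed between the sides beyond the spread of sections (two-sided exact permutation p = 0.496 and 0.798, n = 7 right and 8 left). The TMM scaling factor averaged 0.949 ± 0.120 on the right and 1.056 ± 0.084 on the left (SD, two-sided exact permutation p = 0.0688, n = 7 and 8). Section 16, the right section farthest from the middle, was the deepest at 13052596 counts, and its 10 highest rows took 43.68% of its counts, against 25.18% to 37.27% in the other right sections and 23.07% to 32.09% in the left sections. Results that rest on this section are given with and without it.

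Between the sides, 20 of 15843 rows (0.126%) were called higher on the right, at an adjusted p under 0.05, and 0 (0%) higher on the left (edgeR quasi-likelihood F-test with Benjamini-Hochberg adjustment). At an unadjusted p under 0.05 there were 484 rows, 307 higher on the right and 177 higher on the left. The median log2 fold change, right over left, was -0.000135 over all tested rows. Among the 20 called rows it was 2.63, with 5 rows between 1 and 2, 8 between 2 and 4 and 7 above 4, up to 6.52. The 20 rows had 18 distinct first parts in their identifiers, since DjGI000410 and DjGI002259 were each called in both of 2 rows that share their first part. The 3 largest values, 5.86, 6.19 and 6.52, were fitted in rows with left means of 0.0328, 0.0612 and 0.0163 CPM, where counts were few. On the right, 17 of the 20 averaged above 10 CPM, which are counts scaled to library size with edgeR's TMM factors. DESeq2 called 37 rows higher on the right, which included all 20, and 4 higher on the left. With limma-trend 20 rows were higher on the right, 15 of them shared with edgeR, and 0 were higher on the left. Leaving out 1 section at a time gave 10 rows (without section 33) to 29 rows (without section 29), and 27 without section 16.

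**Figure D1:**
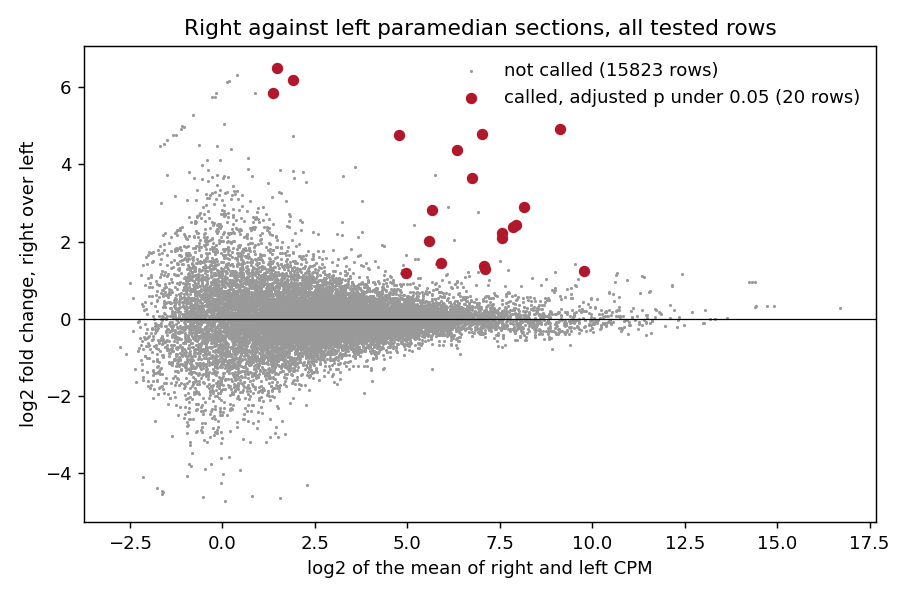
Each point is 1 of the 15843 tested rows, with the log2 of the mean of right and left CPM on the x axis and the log2 fold change, right over left, on the y axis. The 20 called rows, in red, all lie above 0, from 1.18 to 6.52.

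The largest called difference among rows of at least 10 CPM on the higher side was that of DjGI017473_001. In the right sections, from 16 inward to 23 without section 17, it had 58.9, 1597, 1157, 920.7, 774.0, 1459 and 1590 CPM. In the left sections, from 29 outward to 36, it had 144.1, 31.68, 6.565, 15.27, 18.2, 16.83, 26.68 and 23.91 CPM. All right sections but 16 stood above all left sections, while section 16 fell below section 29, so the sides overlapped. DjGI017473_001 averaged 1079 ± 553.5 CPM in the right sections and 35.4 ± 44.6 CPM in the left sections (SD, n = 7 and 8), a log2 fold change of 4.91 ± 0.633 (SE) with an adjusted p of 0.001051 by edgeR.

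DjGI003981_001 followed the same sections at a lower level. It had 41.36, 375.1, 186.1, 262.8, 202.5, 344.1 and 351.1 CPM in the right sections. In the left sections it had 40.18, 8.995, 3.151, 4.673, 3.64, 5.314, 2.737 and 0 CPM. The lowest right section, 16, lay just above the highest left section, 29, so the sides did not overlap. The means were 251.9 ± 118.9 CPM in the right sections and 8.59 ± 13.02 CPM in the left sections (SD, n = 7 and 8), a log2 fold change of 4.78 ± 0.631 (SE) with an adjusted p of 0.001051 by edgeR.

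By edgeR no row passed the test in the other direction. DjGI000245_002, which had the smallest unadjusted p among left-higher rows of at least 10 CPM, ranged from 1.685 to 17.05 CPM in the right sections and from 13.72 to 46.23 CPM in the left sections. Its means were 11.9 ± 5.29 CPM in the right sections and 29.4 ± 8.86 CPM in the left sections (SD, n = 7 and 8), with a log2 fold change of -1.28 ± 0.348 (SE) and an adjusted p of 0.466 by edgeR. DjGI017414_001 had 90.39 to 192.5 CPM in the right sections and 176.6 to 347.6 CPM in the left sections, and 2 left sections lay below the highest right section. Its log2 fold change was -0.73 ± 0.206 (SE) with an adjusted p of 0.516 by edgeR. DESeq2 called both rows, at adjusted p of 0.0143 and 0.0314.

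Sections 16 and 29 were the exceptions on their sides in most of the 20 called rows. Section 16 alone was the lowest right section in 16 of the 20, against 1695 of 15843 tested rows (10.7%). Section 29 alone was the highest left section in 11 of the 20, against 2898 tested rows (18.3%). Right and left values did not overlap in 5 of the 20 rows, against 8 of all tested rows (0.0505%), and without section 16 in 18 of the 20, against 51 of all tested rows (0.322%). The 20 rows were called on the same values, so these overlap counts only describe them.

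Traced along all 37 kept sections of the right-left cut, the median of the 20 rows formed a block that began on the right and ended just left of section 26. Here CPM was scaled over those 37 sections. The median of the 20 rows was 35.84 CPM in section 15 and 47.88 CPM in section 16, and then 276.3 CPM in section 18. It stayed between 187.3 and 276.3 CPM in sections 18 to 24, and was 116.6 CPM in section 26 and 197.0 CPM in section 27. It was 60.41 CPM in section 29, 28.09 CPM in section 30 and 18.55 CPM in section 31. The 3 kept midline sections (24, 26 and 27) were thus all above the left paramedian sections in this median. By mean, all 20 rows were higher in midline than in left paramedian sections, against 4933 of 15843 tested rows. The comparison did not use the midline sections, but the rows were called on low left values, so this follows in part from the call. The peak of each of the 20 rows, taken as the section with the highest running mean over 5 sections, lay in sections 18 to 24 (median 21), which follows in part from how the rows were called. Single rows departed from the outline of the median. As a share of each row's maximum, the lowest of the 20 rows was at 0% in sections 20, 22, 23, 26 and 27. The highest was at 93.93% in left section 42. Kept sections of the cut ran from 6 to 48.

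**Figure D2:**
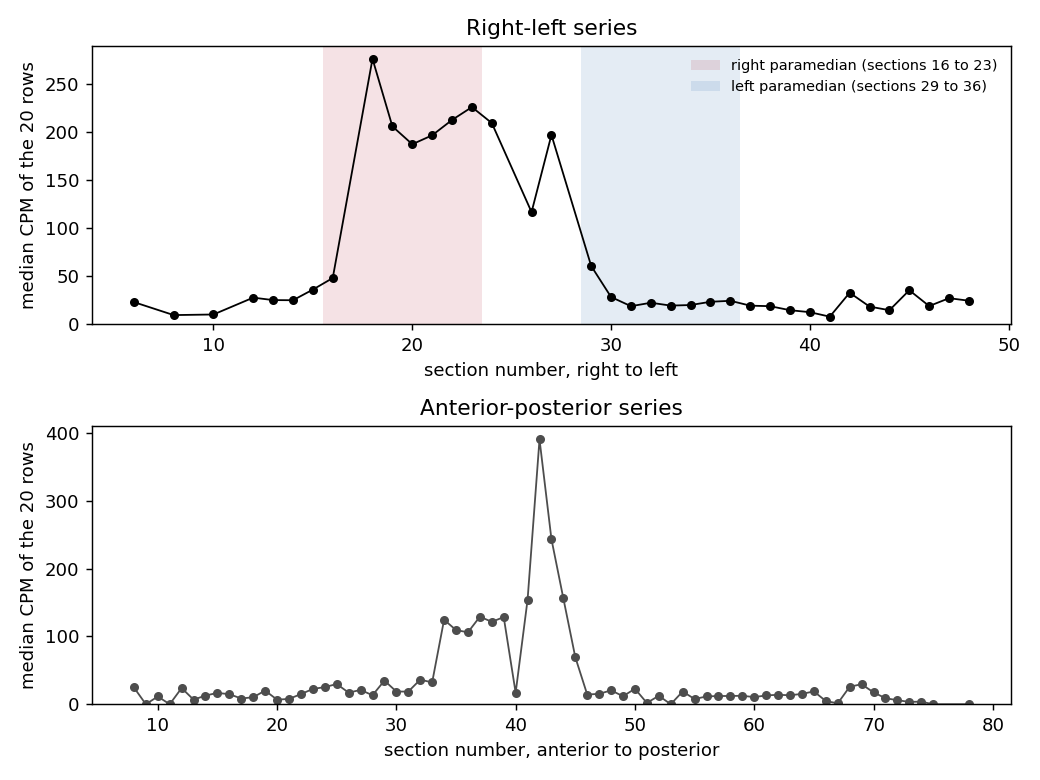
Median CPM of the 20 rows called higher on the right, by section number along the right-left cut (top) and the anterior-posterior cut (bottom). The shaded bands are the right (16 to 23) and left (29 to 36) paramedian sections. The top curve is high from section 18 to section 27, and the bottom curve is high from section 34 to section 45 apart from 16.95 CPM in section 40.

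The named rows had the same outline. DjGI017473_001 had 1471, 419.1 and 888.6 CPM in midline sections 24, 26 and 27 on the scale of the 37 sections. DjGI003981_001 had 356, 182.5 and 195.4 CPM there.

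**Figure D3:**
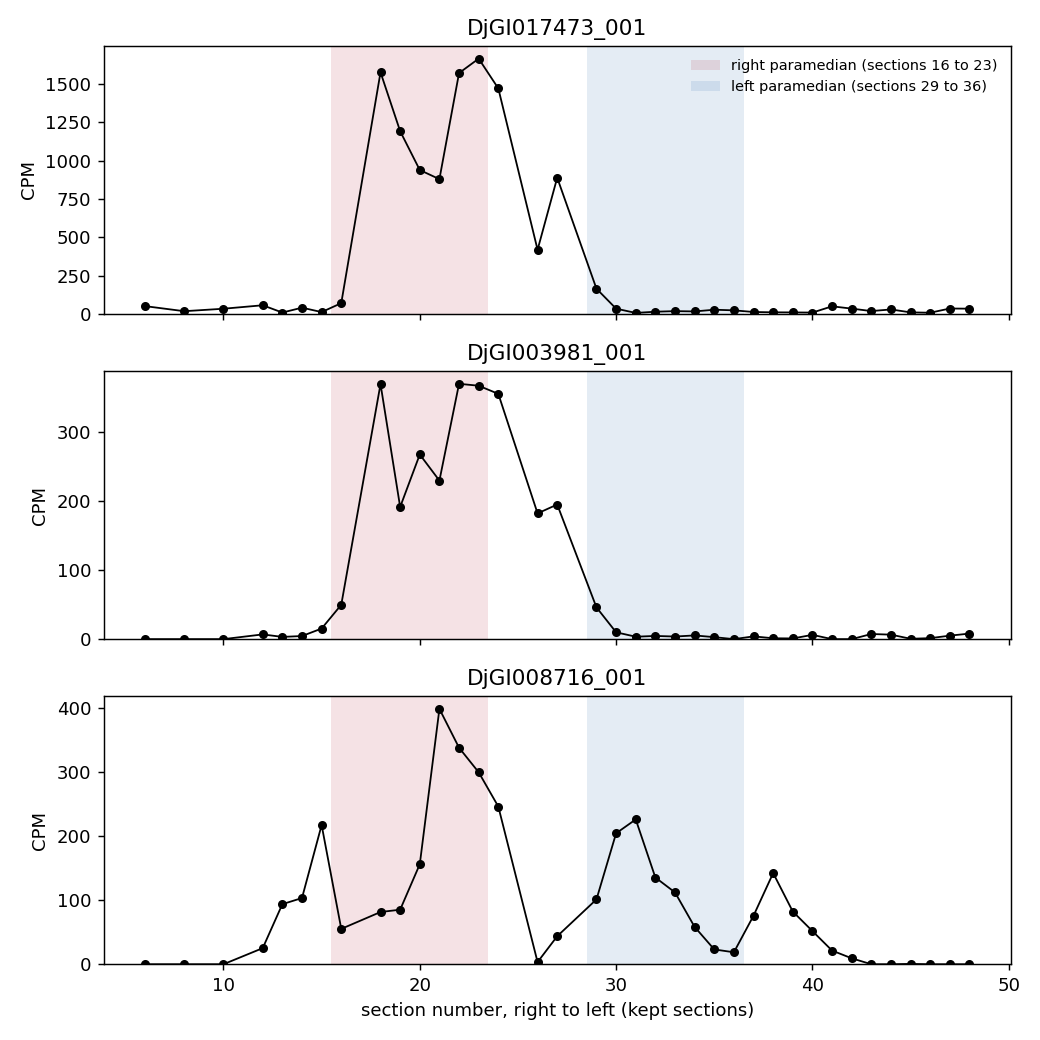
CPM (scaled over the 37 kept sections) of 3 rows by section number from right to left, with right and left paramedian sections shaded. DjGI017473_001 and DjGI003981_001 are high from section 18 to section 27. DjGI008716_001 is high on both sides of section 26, with 399.2 CPM in section 21 and 226.4 CPM in section 31. In midline sections 24, 26 and 27 it has 246.5, 3.38 and 43.77 CPM, and the value in section 26 is 1 count of 347444.

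The anterior-posterior and dorsal-ventral cuts, whose libraries the comparison did not use, placed most of these rows in the middle of the body's length. Each cut was divided into 3 parts by section number. Along the anterior-posterior cut no section in front of section 8 was used, so its anterior part leaves out the foremost sections. Of the 17 rows measured along the anterior-posterior cut, 16 (94.1%) peaked in its middle part, 1 in the posterior part and 0 in the anterior part. Of all tested rows, 37.5% of 13474 peaked in the middle part. The peaks of the 17 lay in sections 35 to 54, with a median of 43. The median of the called rows was 124.7 CPM in section 34, 390.9 CPM in section 42 and 69.44 CPM in section 45. DjGI017473_001 averaged 734.6 ± 986.0 CPM in the middle part (n = 26 sections), 23.21 ± 29.46 CPM in the anterior part (n = 19) and 25.57 ± 29.49 CPM in the posterior part (n = 24), with SDs over sections. Along the dorsal-ventral cut, 10 of the 20 rows (50%) peaked in the dorsal part, 9 (45%) in the middle part and 1 (5%) in the ventral part, against 19.4%, 49.7% and 30.9% of 15739 tested rows. These 20 peaks lay in sections 7 to 23, and their median of 9.5 fell at the border of the dorsal and middle parts. The dorsal share thus depends on where that border is set, and only 5 dorsal sections were kept. DjGI017473_001 peaked in section 14, in the middle part.

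The count of unequal rows depended on the section taken as the mirror plane. The labels give section numbers and no anatomical midline, and an offset of the midline from section 26 and a difference between the sides cannot be told apart from these sections. With the same distances of 3 to 10 sections about other planes, chosen after the values for section 26 were known, 0 rows were called about section 21 and 0 about section 24 (0% each), with 316 and 367 rows at an unadjusted p under 0.05. About section 22 there was 1 row of 15257 (0.00655%), and about section 23 there was 1 of 15431 (0.00648%). It was the same row, DjGI008464_001, which was higher on the left. About section 23 it averaged 0.344 ± 0.618 CPM in the right sections and 40.2 ± 48.5 CPM in the left sections (SD, n = 7 each), with a log2 fold change of -7.30 ± 1.10 (SE) and an adjusted p of 0.0157 by edgeR. About section 25 there were 2 rows of 15750 (0.0127%), DjGI003981_001 and DjGI018898_001, both higher on the right.

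Moving the plane to the left gave more rows. There were 52 about section 27 (0.332%), 56 about section 28 (0.363%) and 40 about section 29 (0.259%), and all of them were higher on the right. Over the same planes from section 21 to section 29, the median log2 fold change of the 20 rows called about section 26 was -0.683, 0.179, 0.618, 1.27, 2.29, 2.63, 3.17, 3.47 and 2.99. These comparisons share most of their sections with each other. About sections 21 to 24, 0 of the 20 rows were called, and about sections 27, 28 and 29 there were 18, 18 and 16.

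**Figure D4:**
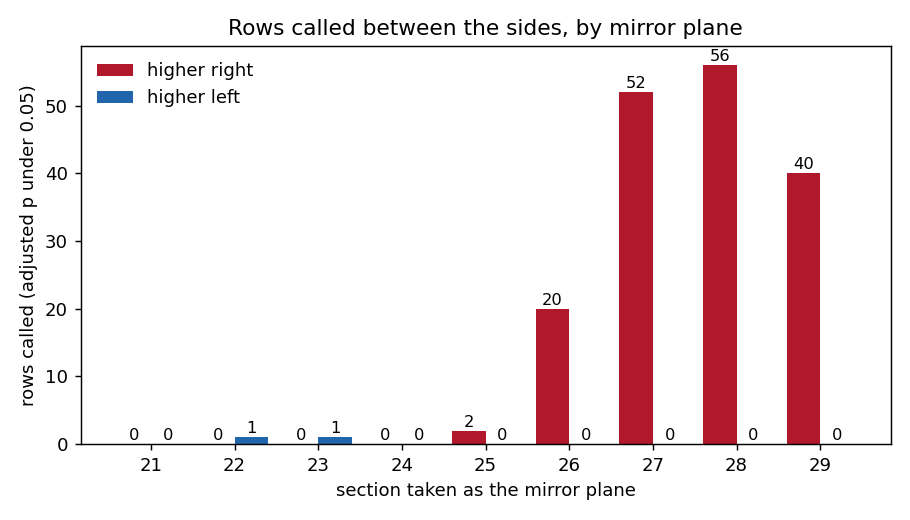
Number of rows called higher on the right (red) and higher on the left (blue) at an adjusted p under 0.05, by the section taken as the mirror plane, with sections 3 to 10 away compared on each side. Counts are 0 to 2 from section 21 to section 25, 20 at section 26 and 40 to 56 from section 27 to section 29. The number of kept sections per side differs between planes.

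A row that misses the threshold is not thereby equal on both sides, so the precision was read from the 95% interval of each log2 fold change. The whole interval lay between -1 and 1 in 3281 of 15843 rows (20.7%). This depended on level, with 3 of 2018 rows under 1 CPM (0.149%), 90 of 7922 rows between 1 and 10 CPM (1.14%), 2397 of 4930 rows between 10 and 100 CPM (48.6%) and 791 of 973 rows above 100 CPM (81.3%). The interval reached a median of 2.55 to either side in rows under 1 CPM and 0.499 in rows above 100 CPM, on the log2 scale. For most rows under 10 CPM the interval thus extended past a log2 fold change of 1 in size, which limits what these sections can show at low levels.

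Among rows of at least 10 CPM, the narrowest intervals were those of DjGI004929_001 and DjGI002064_001. DjGI004929_001 had 475.1 to 579.1 CPM in the right sections and 490.5 to 614.7 CPM in the left sections, with a log2 fold change of -0.06 (95% interval -0.396 to 0.268). DjGI002064_001 had 226.7 to 265.4 CPM in the right sections and 195.7 to 282.2 CPM in the left sections, with a log2 fold change of -0.01 (95% interval -0.350 to 0.324). The right and left ranges of DjGI004929_001 overlapped in part, and the right range of DjGI002064_001 lay within its left range.

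The most abundant row, DjGI002446_001, varied far more between sections of a side than between sides. It had 28320 to 234100 CPM in the right sections, with the lowest value in section 16, and 44640 to 198100 CPM in the left sections. Its means were 116790 ± 77060 CPM in the right sections and 97305 ± 56390 CPM in the left sections (SD, n = 7 and 8), and its log2 fold change of 0.26 had a 95% interval of -0.610 to 1.14. DjGI017786_001, the next in abundance, averaged 34192 ± 4740 CPM in the right sections and 27220 ± 5249 CPM in the left sections (SD, n = 7 and 8), with a log2 fold change of 0.33 ± 0.206 (SE).

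DjGI016985_001, DjGI017863_001 and DjGI015660_001, which earlier results of these data had named between the outer right and left parts of the cut, were followed here. DjGI016985_001 had 117.9 to 313.8 CPM in the right sections. On the left it had 204.1 CPM in section 29, 25.03 CPM in section 30 and 0 to 7.971 CPM in sections 31 to 36, so the section nearest to the middle decided its spread. Its log2 fold change was 2.76 ± 0.911 (SE) with an adjusted p of 0.933 by edgeR, and 5.10 with an adjusted p of 0.000547 when section 29 was left out. DjGI017863_001 averaged 122.7 ± 116.2 CPM in the right sections and 15.7 ± 15.1 CPM in the left sections (SD, n = 7 and 8), with a log2 fold change of 2.89 ± 0.727 (SE) and an adjusted p of 0.293 by edgeR. DjGI015660_001 averaged 5.86 ± 5.91 CPM in the right sections and 22.8 ± 30.0 CPM in the left sections (SD, n = 7 and 8), with its highest values of 52.03 and 83.72 CPM in left sections 32 and 33, and did not pass the test (log2 fold change -1.92 ± 0.894 SE).

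The change from the middle outward was tested as a slope per section, common to both sides. By edgeR 0 of 15843 rows (0%) passed, with 754 at an unadjusted p under 0.05, while DESeq2 called 21 rows and limma-trend 1. Without section 16 the same edgeR test called 245 of 15149 rows (1.62%), of which 102 (0.673%) rose outward and 143 (0.944%) fell outward. Section totals also changed with distance, by -0.357 on the log2 scale per section outward on the left, and by 0.151 on the right with section 16 and -0.18 without it. With section 16 left out and the section total in the model, 0 of 15149 rows (0%) passed and 829 had an unadjusted p under 0.05.

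DjGI008716_001 was the row with the smallest unadjusted p among those that were higher near the middle. In the right sections, from 16 inward to 23, it had 45.84, 82.73, 82.75, 153.3, 351.4, 314.3 and 286.5 CPM. In the left sections, from 29 outward to 36, it had 88.44, 184.7, 202.7, 136.5, 107.7, 57.57, 21.89 and 18.51 CPM. On both sides the 2 highest values lay 4 and 5 sections from section 26 and the lowest lay 10 sections from it. Its slope was -0.46 ± 0.074 (SE) on the log2 scale per section outward, with an adjusted p of 0.0511 by edgeR over all sections and 0.023 without section 16. DjGI008916_001 had a slope of -0.36 ± 0.067 (SE), with an adjusted p of 0.147 by edgeR over all sections and 0.0276 without section 16. In the outward direction, DjGI012670_001 had a slope of 0.49 ± 0.111 (SE), with an adjusted p of 0.354 by edgeR over all sections and 0.023 without section 16. DjGI002500_001 had a slope of 0.32 ± 0.084 (SE), with 0.611 over all sections and 0.0263 without section 16. DESeq2 called all 4 of these rows over all sections. In DjGI012670_001, left section 36 had 422.7 CPM and the other left sections 10.53 to 44.29 CPM, against 8.253 to 41.93 CPM in the right sections. Without section 36 its slope was 0.21, with an adjusted p of 1 by edgeR.

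The slope differed between the sides in 20 of 15843 rows (0.126%), 18 of them with the larger slope on the right and 2 with the larger slope on the left (interaction term, edgeR quasi-likelihood F-test). None of the 20 was among the rows called between the sides. Of these 20 rows 11 were highest in section 16 and 7 in section 29. Such peaks follow in part from the call, since the rows were called on the same values. The share of all tested rows with such peaks is not given, so no excess can be read from them. By edgeR the count was 0 without section 16, 0 without section 29 and 0 with the section total in the model, where 841, 1800 and 1049 rows had an unadjusted p under 0.05. Over all kept sections DESeq2 called 261 rows, 153 with the larger slope on the right and 108 on the left. The split ran the other way with limma-trend, which called 17 rows, 1 with the larger slope on the right and 16 on the left. Over the 5903 rows of at least 10 CPM, the slopes of log2(CPM + 1) on the right and on the left had a Pearson correlation of -0.153 across rows (Spearman -0.153), and of 0.368 (Spearman 0.379) when section 16 was left out. These are correlations across rows of the same libraries, which share depth, and rows are not independent replicates.

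Mirrored sections were compared as whole profiles by the correlation of log2(CPM + 1), centred per row. The 7 mirrored pairs with both sections kept had a mean correlation of -0.0374, from -0.272 for sections 16 and 36 to 0.307 for sections 21 and 31. This did not exceed the mean over reassigned left sections of -0.0644 beyond their spread (one-sided exact permutation p = 0.338 over 5040 orders). Without section 16, and so without its pair with section 36, the mean was 0.00168 (one-sided exact permutation p = 0.0722). The result of this test thus depended in part on section 16. Right sections correlated with each other at a mean of -0.0691 (21 pairs), left sections with each other at -0.0614 (28 pairs) and right with left sections at -0.0662 (56 pairs). Centring each row over the same sections by itself puts the average correlation between sections slightly below 0. Means of this size therefore do not show that sections of a side, or of both sides, were unlike. The 5 deepest sections, with 3848331 counts or more, correlated with each other at a mean of 0.167 (10 pairs) and with the other 10 sections at -0.11 (50 pairs). Depth did not order the pairs throughout. Section 23, one of the 5 deepest, correlated at -0.166, -0.070, -0.135 and -0.140 with sections 16, 21, 30 and 31. Section 29, with 3685410 counts and not among the 5, correlated with the same sections at 0.434, 0.364, 0.376 and 0.334. The part of depth in these correlations was not tested.

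**Figure D5:**
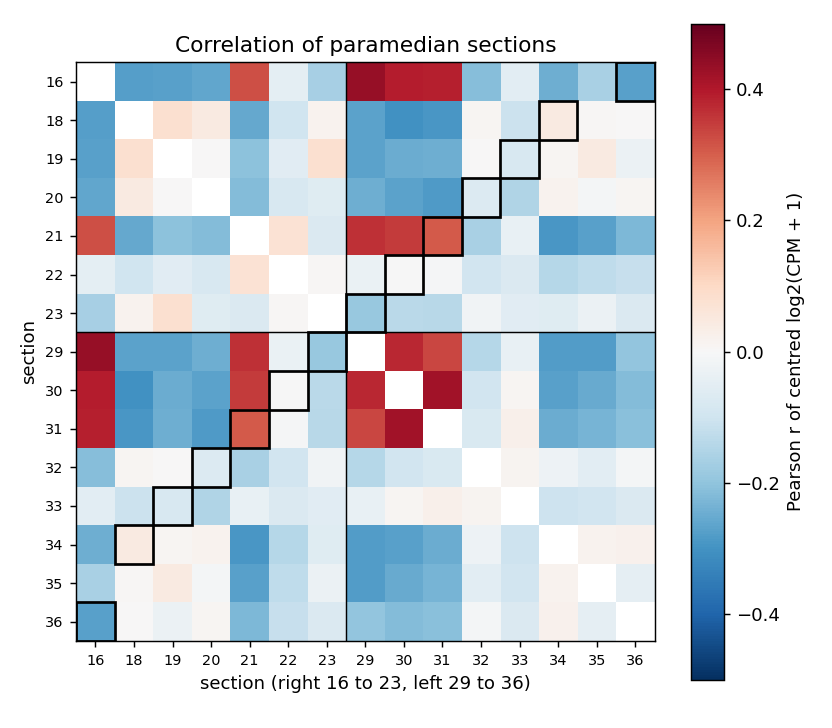
Pearson correlation of centred log2(CPM + 1) between the 15 kept paramedian sections, right sections 16 to 23 first and left sections 29 to 36 after them. Outlined cells are the 7 mirrored pairs, which range from -0.272 to 0.307, and the darkest red cells join sections 16, 21, 29, 30 and 31.

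The same rows were fitted over all 37 kept sections to set the right-left count beside other contrasts of the cut. Midline over paramedian sections gave 1 row (0.00631%), DjGI002462_001, which averaged 336.7 ± 554.4 CPM in 3 midline sections and 15.0 ± 10.7 CPM in 15 paramedian sections (SD), with 588 rows at an unadjusted p under 0.05. Outer over paramedian sections gave 158 rows (0.997%), 17 higher (0.107%) and 141 lower in the outer sections. These contrasts share the paramedian sections with the right-left comparison and differ from it in the number of sections, so the counts are given side by side only.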

How the data were processed

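Each library is polyadenylated RNA of 1 section, prepared with Direct-TRI and the multiplexed method Lasy-Seq version 1.1, per the labels' protocols. The authors deposited a table of estimated counts (expected counts) per cut. The submitters' processing notes name Salmon (version not given in the sources used here), BWA 0.7.17-r1188, fastp 0.21.0 and bcl2fastq 2.20.0, with no role for each, and the transcript reference is not given either. Values that were not whole, 468 in the right-left cut, were rounded. Near-identical rows may share reads and are uncertain. In the anterior-posterior cut, 7 columns whose names match more than 1 section were not used, and the sections used begin at section 8.

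Tests used edgeR 4.0.16 in R 4.3.3, with TMM scaling, the quasi-likelihood F-test, Benjamini-Hochberg adjustment over all tested rows and a call at an adjusted p under 0.05. Fold changes are right over left, on the log2 scale. The SE was read from the F statistic and the 95% interval from its t quantile. CPM was scaled over the 15 kept sections unless said otherwise. DESeq2 1.42.0 and limma 3.58.1 were alternatives, with other depth minimums, filters, scalings, mirror planes, blocks by distance and each section left out. DESeq2 left 2458 rows without an adjusted p, and these could not be called. Its counts are therefore not over the same rows as those of edgeR. The fit was tested on simulated data, with counts drawn independently for each section. That simulation does not bear on p-values where neighbouring sections are alike, and its outcome is not given here. Rows named are, per direction, the 2 called rows with the largest log2 fold change at 10 CPM or more on the higher side (where none was called, the smallest unadjusted p), likewise for the slope, the 2 most abundant rows, the 2 with the narrowest interval and 3 rows named by earlier results. DjGI000410, DjGI002259, DjGI008464_001, DjGI018898_001 and DjGI002462_001 were named after their values were seen. Sections, rule and rows were chosen with earlier results of these data known.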

Additional observations from a re-analysis of the deposited data

Results flagged for a closer look

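In 4 of the 34 groups of section values tested for a lone extreme value (Dixon's ratio of the gap to the range), 1 section stood apart. Chance marks about 1 in 20 groups of normally distributed values that were not chosen by those values. Many of these rows were named for their fold change or slope, so that rate is not a yardstick for them. Left section 29 stood above the other left sections for DjGI017473_001 (144.1 CPM against a median of 21.06 CPM over the left sections, ratio 0.817), for DjGI003981_001 (40.18 against 4.157 CPM, ratio 0.776) and for DjGI016985_001 (204.1 against 2.415 CPM, ratio 0.877). Section 29 is the left section nearest to the middle. Left section 36, the farthest from the middle, stood apart for DjGI012670_001 (422.7 against a median of 25.9 CPM, ratio 0.918). The outward slope differed between right and left in 20 rows by a test of the difference itself, a count that was 0 without section 16 and 0 without section 29.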

How the results depend on the processing

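With section 26 as the plane, every right-left call was higher on the right under the settings tried, apart from 4 left-higher rows with DESeq2 and 1 without section 22, but the number of calls moved. Against 20 rows it was 41 with DESeq2, 11 with library totals only, 9 with nearer and 4 with farther sections only and 13 with all kept sections in the fit. With mirrored distance as a block it was 17, of which 12 were among the 20. Sections 14 to 21 against 29 to 36 gave 0 (393 at an unadjusted p under 0.05), sections 18 to 23 against 31 to 36 gave 34, and distances of 3 to 10 about sections 21 to 25 and 27 to 29 gave 0, 1, 1, 0, 2, 52, 56 and 40. Leaving out 1 section gave 10 (without section 33) to 29 (without section 29). It gave 12 without section 18, 11 without section 23, 30, 31, 34 or 35, 13 without section 32 and 27 without section 16. Without sections 16 and 29 it was 38.

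The interaction count, 20, was 72 with no depth minimum, 49 with no count filter, 12 with a stricter count filter, 261 with DESeq2, 54 with RLE factors, 11 with library totals, 0 with the section total in the model (also without section 16), 0 about sections 25 and 27, 2 with nearer sections, 50 with thinned counts, 0 without sections 16 and 29, and 0 to 242 leaving out 1 section (242 without section 21). The slope count, 0, was 1 with no count filter, library totals, limma-trend or thinned counts, 21 with DESeq2, 3 about section 27, 21 without sections 16 and 29, and 0 to 245 leaving out 1 section. Intervals within -1 and 1, 3281, were 1987 with nearer, 757 with farther sections, 1978 thinned, 1654 with all kept sections in the fit, 1296, 1513 and 2170 about sections 21, 22 and 23, and 2805 to 3248 leaving out 1 section. The mirrored correlation, -0.0374, ran from -0.0948 to 0.00168 leaving out 1 section (0.00168 without section 16 or 36). The midline count, 1, was 15 with no depth minimum, 0 with a minimum of 50%, 14 with no count filter, 0 with the section total in the model, and 1 to 4 leaving out 1 section. The outer count, 158, was 1094 with no depth minimum, 40 with 50%, and 103 to 187 leaving out 1 section.

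Directions turned in these rows: DjGI015660_001 was at a log2 fold change of 0.17 with sections 14 to 21 on the right and at 2.06, 1.02 and 0.044 about sections 21, 22 and 23. About section 21, DjGI017473_001 was at -0.69, DjGI003981_001 at -0.74, DjGI017414_001 at 0.062 and DjGI016985_001 at -1.39, and about section 22 the last 2 were at 0.020 and -0.43. The cause was not tested. Limits are the section as the unit, a plane set by section number, and depth, since intervals were wide under 10 CPM. The planes compared at distances of 3 to 10, the joint omission of sections 16 and 29 and the section total without section 16 were chosen after seeing the data.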
